A study of Arabidopsis thaliana with 30 samples.

Results

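The plant cell cycle genes described here are 47 loci of Arabidopsis thaliana that encode the A-, B- and D-type cyclins, their kinases and kinase inhibitors, the E2F factors, the machinery that copies DNA and the proteins that run mitosis and cytokinesis. They were taken by locus code from the 32679 entries of each count table, from a list drawn up with earlier results of these data known. All 47 passed the filter on low counts that 19566 entries passed. RNA was sequenced from shoots in 30 libraries, 3 (A, B and C) for each of 10 groups. The named lines were EAR-13-068, EAR-15-025 and EAR-15-053, labelled with the genotype EAR, and VP16-02-003 and VP16-05-014, labelled VP16. Each line was set against the background of the pool that its number names (EAR pool 13, EAR pool 15, VP16 pool 2 or VP16 pool 5), and lines and pools against Col-0, the common laboratory accession. By their usual meaning, EAR stands for a repression motif of plants and VP16 for a viral activation domain. The study title speaks of growth and of genome interrogation, a method in which artificial transcription factors carrying such domains are expressed in plants. Age, growth conditions, the number of plants behind a library or a pool, the promoter of the constructs and the sequences the factors bind are not stated in the sources used here.

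A plant cell enters division when D-type cyclins with the kinase CDKA;1 release E2F factors from the retinoblastoma protein. E2F factors then raise the genes of S phase, among them CDC6, CDT1 and the MCM2 to MCM7 helicase, which license replication origins, the sliding clamp PCNA, and ribonucleotide reductase, which makes deoxynucleotides. Before mitosis B-type cyclins and the plant-specific CDKB kinases are made, many of them through MYB3R factors that bind the mitosis-specific activator (MSA) element. CDC20 activates the ligase that destroys the cyclins, Aurora kinases act on chromosomes, the syntaxin KNOLLE fuses vesicles at the new cell plate, and the kinesin HINKEL builds the phragmoplast. In shoots such cells sit mainly in the meristem and in young leaves. In bulk RNA, fewer dividing cells and less RNA per dividing cell cannot be told apart.

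Depth was 10076308 to 40780331 reads on genes per library, of which the 47 genes took 8968 to 39005 reads, and the lowest count of any of them in any library was 22, for CYCB2;1. All 9 photosynthesis markers were abundant, at a summed 71360 to 111300 CPM per library (counts scaled to library size with TMM factors). Flower markers summed to 0.539 to 2.48 CPM. The 5 root markers summed to 55.5 to 104 CPM, nearly all from PYK10 (48964 reads over all libraries, found in each of the 30), with 143 reads of CASP1, 17 of COBL9 and 0 of RHD6 and EXPA7. Counts without 4 libraries, namely C of VP16-05-014, EAR-15-053 and EAR-13-068 and A of EAR-15-025, are given beside those with all libraries as counts without the libraries standing apart. These 4 were picked by eye on the first principal components after the data were seen. For EAR-13-068 the pick was arbitrary, since its library B lay between A and C. By a chi-square of counts per degree of freedom, which grows with depth, C of the VP16 pool 2 background also differed from A (38.9) and B (25.3) by more than they did from each other (10.3), whereas C of EAR-13-068 gave 16.9 and 9.19 beside 5.82. A second set of 4, chosen by this chi-square, holds VP16 pool 2 C in place of EAR-13-068 C. Calls rest on edgeR's quasi-likelihood test over all 30 libraries, with a threshold of 0.05 on the p adjusted by Benjamini-Hochberg across every gene tested. No label says whether replicate libraries are separate plantings, so the p-values measure the spread between these libraries, which may be technical.

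Per length of transcript the genes spanned a wide range. In Col-0 the highest levels were those of the D-type cyclin CYCD3;2 at 35.7 CPM per kb, the large ribonucleotide reductase subunit RNR1 at 34.4, its small-subunit partner TSO2 at 33.9, CDKA;1 at 27.9 and KNOLLE at 25.4 CPM per kb. The lowest were CYCB2;1 at 1.65, the kinase WEE1, which restrains CDKs, at 2.01 and CYCD4;1 at 2.14 CPM per kb. Over the 10 groups the highest group mean of a gene was 1.14 to 2.41 times its lowest. The extremes were CYCD3;2 and CDC6. Group means were highest in the VP16 pool 5 background for 32 of the 47 genes and in Col-0 for 5. They were lowest in EAR-15-025 for 16, in EAR-15-053 for 9 and in VP16-02-003 for 8.

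**Figure D1:**
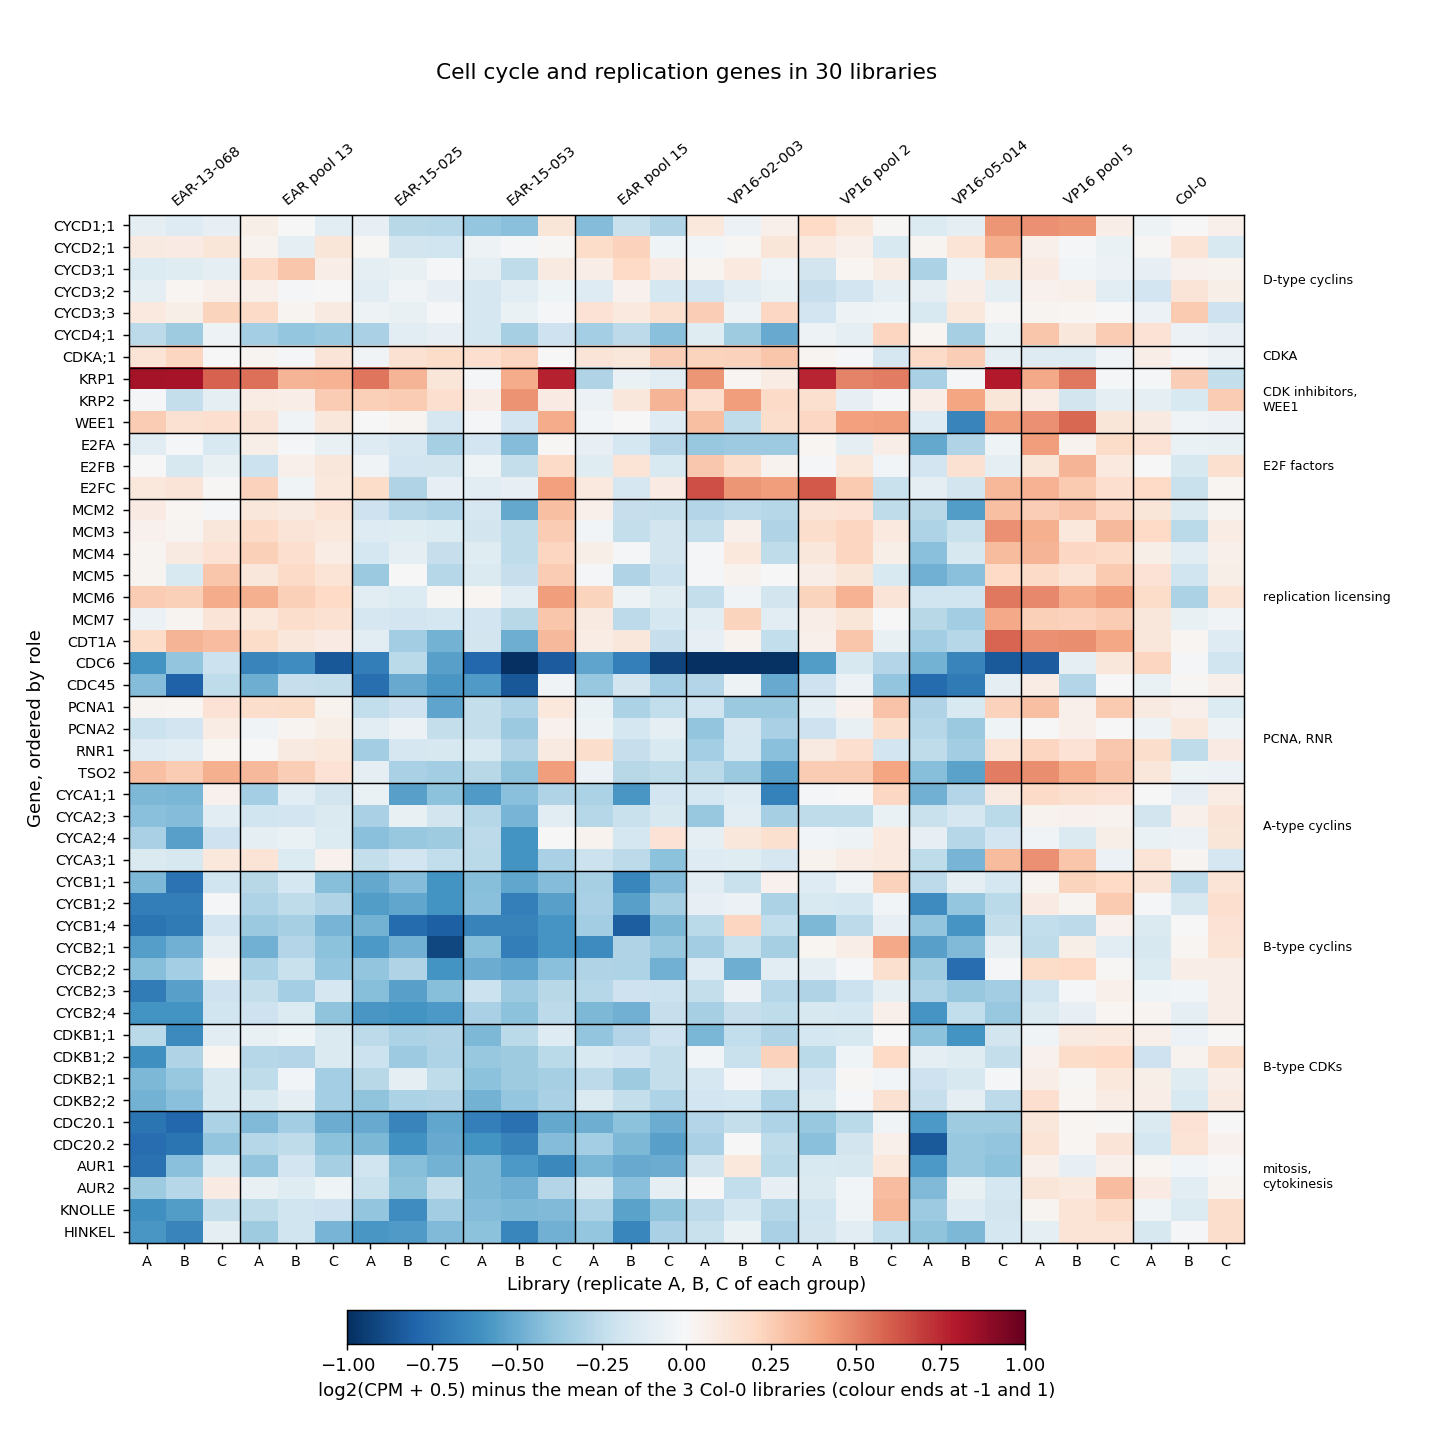
Level of the 47 genes (rows, ordered by role) in the 30 libraries (columns, A, B and C of each group) as log2(CPM + 0.5) minus the mean of the 3 Col-0 libraries, with colours ending at -1 and 1. The rows from CYCB1;1 down to HINKEL are mostly blue across the 15 EAR libraries, with the palest column in EAR-13-068 C, while the MCM rows vary in sign from library to library.

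The 17 genes that act in G2 and mitosis (7 B-type cyclins, 4 CDKB kinases and 6 genes of mitosis and cytokinesis) all had a negative log2 fold change from Col-0 in each of the 5 EAR groups, with medians from -0.51 to -0.31. The 13 S phase genes (MCM2 to MCM7, CDT1A, CDC6, CDC45, both PCNA genes, RNR1 and TSO2) had medians from -0.24 to 0.12. With all libraries CDC6 was the one among them called in any of these groups. In log2 CPM minus the Col-0 mean, the median of the G2/M genes lay between -0.63 and -0.17 in EAR-13-068, between -0.53 and -0.44 in EAR-15-025, between -0.55 and -0.45 in EAR-15-053, between -0.36 and -0.21 in pool 13 of EAR and between -0.44 and -0.33 in pool 15. The 3 Col-0 libraries lay between -0.03 and 0.07, so that none of the 15 EAR libraries overlapped them. Nor did any library of the VP16 lines, which lay between -0.28 and -0.18 in VP16-02-003 and between -0.41 and -0.25 in VP16-05-014. The VP16 pool 2 background lay between -0.185 and 0.06 and pool 5 between 0.03 and 0.10. The S phase median lay between 0.11 and 0.13 in the EAR pool 13 background and between -0.29 and -0.18 in EAR-15-025, against -0.07 to 0.12 in Col-0. In EAR-15-053 it was -0.19, -0.32 and 0.26 in A, B and C, so that library C alone was above Col-0. The median of all genes tested stayed within -0.01 and 0.02 of Col-0 in every library. These medians are descriptions, and no test was made on them.

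**Figure D2:**
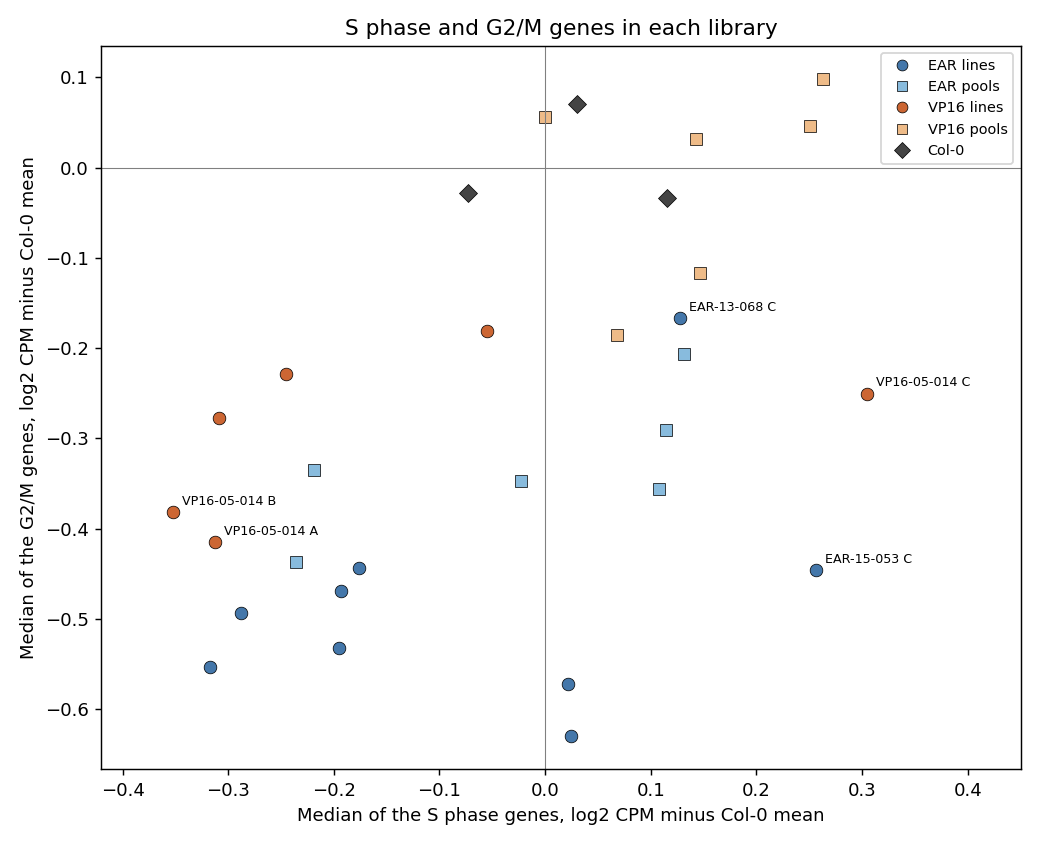
Each point is a library, placed by the median of the 13 S phase genes (horizontal) and of the 17 G2/M genes (vertical), both as log2 CPM minus the Col-0 mean. EAR libraries (blue) lie at -0.17 or lower on the vertical axis, VP16 lines (orange) between -0.41 and -0.18 and VP16 pools (light orange) between -0.19 and 0.10. Both axes are low in VP16-05-014 A and B. In C the vertical axis is low (-0.25) and the horizontal axis is not (0.30).

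CDC20.1 (AT4G33270), an activator of the anaphase-promoting ligase, was the gene called lower than Col-0 in all 5 EAR groups. It stood at 28.2 ± 5.31 CPM in EAR-13-068, 28.9 ± 1.69 in EAR-15-025, 27.2 ± 2.36 in EAR-15-053, 31.7 ± 1.73 in pool 13 and 30.9 ± 1.02 in pool 15, against 43.0 ± 4.42 CPM in Col-0 (SD, n = 3 each). The 3 libraries of the EAR pool 15 background had 30.4, 32.1 and 30.2 CPM, against 38.6, 47.5 and 42.8 CPM in Col-0. Its highest EAR library, at 34.3 CPM, was below the lowest Col-0 library. Against Col-0 the log2 fold change was -0.61 (SE 0.11, adjusted p = 0.000558) in EAR-13-068, -0.57 (SE 0.11, adjusted p = 0.00216) in EAR-15-025 and -0.65 (SE 0.11, adjusted p = 0.000434) in EAR-15-053. Pool 13 was at -0.43 (SE 0.11, adjusted p = 0.012) and pool 15 at -0.47 (SE 0.11, adjusted p = 0.0103). These 5 comparisons share the 3 Col-0 libraries. CDC20.2, its neighbour on the chromosome, has a coding sequence 95.3% identical to that of CDC20.1, with a longest shared run of 314 bases, so how reads divided between this pair is uncertain.

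All 15 EAR libraries were below all 3 Col-0 libraries in 8 of the 47 genes, which is 17% of them beside 3.21% of all genes tested. They are CYCB1;4, CYCB2;3, CYCB2;4, CDC20.1, CDC20.2, AUR1 and KNOLLE, all of G2/M, and CDC6. KNOLLE (AT1G08560) ran from 22.6 CPM over a median of 26.4 to 30.4 CPM in the EAR libraries, against 31.8, 34.2 and 39.6 CPM in Col-0. The Aurora kinase AUR1 (AT4G32830) ran from 7.28 over 9.02 to 11.4 CPM in the EAR libraries, against 12.3, 12.6 and 12.7 CPM in Col-0. In AUR1 the Col-0 libraries lay close together and the EAR libraries were spread below them.

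Against Col-0 the EAR pool 15 background had 10 of the 47 genes called lower and 0 higher, or 21.3%, where 6.61% of all genes tested were called. Of these, 9 belong to G2/M, namely CDC20.1, AUR1 (-0.51, SE 0.13), CYCB1;1 (-0.54, SE 0.14), KNOLLE (-0.43, SE 0.12), CYCB2;4 (-0.41, SE 0.12), HINKEL (-0.46, SE 0.13), CDC20.2 (-0.45, SE 0.13), CYCB1;4 (-0.56, SE 0.17) and the B-type kinase CDKB2;1 (-0.30, SE 0.09), with adjusted p from 0.0103 to 0.0481. CYCB1;1 (AT4G37490), the B-type cyclin whose promoter is widely used as a G2/M reporter, had 5.48, 4.31 and 5.10 CPM in the pool, against 7.77, 5.78 and 7.78 CPM in Col-0. Libraries A and C of Col-0 stood well above the pool, and Col-0 B lay just above its highest library. CDKB2;1 had 16.8, 15.7 and 17.0 CPM in the pool, against 21.0, 18.5 and 21.1 CPM in Col-0, without overlap. The remaining gene, CDC6, belongs to S phase and fell by 0.74 (SE 0.19, adjusted p = 0.0217). The count was 6 with library sizes alone, 16 without the libraries standing apart (where 15.4% of all genes were called), and between 1 and 6 when any 1 of the 6 libraries was left out, the lowest without EAR pool 15 B.

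The EAR pool 13 background had 3 genes called lower than Col-0 and 0 higher, 6.38% of the 47 where 8.71% of all genes were called. They are CDC20.1, CDC6 (-0.75, SE 0.19, adjusted p = 0.0146) and CYCD4;1 (-0.43, SE 0.13, adjusted p = 0.0336), a D-type cyclin. CYCD4;1 had 3.31, 3.19 and 3.23 CPM in the pool, against 4.82, 4.13 and 4.05 CPM in Col-0. The pool libraries were alike and all below Col-0. All 17 G2/M genes had negative log2 fold changes, with a median of -0.31, and 13 of them had an unadjusted p under 0.05, which 11.7% of all genes reached on the lower side. The median of the S phase genes was 0.12, and that of all genes tested 0.01. Without the libraries standing apart 9 were called (16.7% of all genes). No gene was called without EAR pool 13 C, and 1 without Col-0 A or without Col-0 B.

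The 3 EAR lines were also set against Col-0, and each had a larger share of these genes called than of all genes. EAR-13-068 had 13 lower and 1 higher (29.8%, beside 9.29% of all genes), EAR-15-025 had 11 lower (23.4%, beside 4.34%) and EAR-15-053 had 15 lower (31.9%, beside 10.8%). G2/M genes made up 12, 11 and 14 of the lower calls in these lines. Besides CDC20.1, the genes CDC20.2, KNOLLE, HINKEL, CYCB1;1, CYCB1;2, CYCB1;4, CYCB2;4 and CDKB2;2 were called lower in all 3 lines. The lines share the 3 Col-0 libraries. In the 6 fits of a line with 1 library left out, CDC20.1 was called in 6 for each line. CYCB2;4 was called in 0 of them for EAR-15-053, and CDKB2;2 in 1 for EAR-15-025. AUR1 and CDKB2;1 were called in EAR-13-068 and EAR-15-053, CYCB2;3 in EAR-13-068 and EAR-15-025, and CYCB2;1 in EAR-15-025 and EAR-15-053. CYCB2;2 and AUR2 were called in EAR-15-053. The log2 fold changes of the G2/M genes ran from -0.64 to -0.21 in EAR-13-068, from -0.79 to -0.22 in EAR-15-025 and from -0.68 to -0.30 in EAR-15-053. Outside G2/M, CYCA2;3, an A-type cyclin, fell by 0.33 (SE 0.10, adjusted p = 0.0471) in EAR-13-068 and CDC6 fell by 0.93 (SE 0.19, adjusted p = 0.00412) in EAR-15-053. With all libraries none of MCM2 to MCM7, CDT1A, CDC45, PCNA1, PCNA2, RNR1 and TSO2 was called in any EAR group against Col-0. Over the 5 EAR groups, 18 of the 47 genes were called lower at least once, and 15 of these 18 are of G2/M. Without the libraries standing apart the counts were 22, 18 and 28, with 18.9%, 11.2% and 19.1% of all genes called. The fit without the second set of 4 libraries called S phase genes other than CDC6. PCNA1, MCM2, CDT1A, CDC45 and TSO2 were lower in EAR-15-025 and EAR-15-053, and PCNA2 in EAR-15-053. That set leaves out EAR-15-025 A and EAR-15-053 C. Libraries B and C of the first line and A and B of the second therefore stand behind these calls. The library C left out of EAR-15-053 was the one of its line with an S phase median above Col-0, at 0.26. EAR-13-068 had CDC45 lower and TSO2 higher, and EAR pool 13 had TSO2 higher. Of all genes, 11.9%, 21.3%, 19.4% and 18.1% were called in these 4 groups, in the order named.

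Leaving out single libraries moved the counts of the EAR lines against Col-0. EAR-13-068 called 3 genes without its library A or without B, 18 without C, 8 without Col-0 A and 4 without Col-0 C. EAR-15-025 called 5 without its library B or without C and 3 without Col-0 C. EAR-15-053 called 9 without its library B and 8 without Col-0 C. When only the 6 libraries compared entered the fit, EAR-13-068 called 5 and EAR-15-053 called 8. The shares of all genes called in these fits are not given here. Whether calls moved in these genes more than in all genes therefore cannot be read from the counts.

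KRP1 (AT2G23430), an inhibitor of cyclin-dependent kinases, was the member called higher in EAR-13-068 than in Col-0. It had 15.4, 15.3 and 12.9 CPM in the line, against 8.39, 10.1 and 7.10 CPM in Col-0, a log2 difference of 0.80 (SE 0.22) with an adjusted p of 0.0236. The groups did not overlap. The call was lost without EAR-13-068 A, EAR-13-068 B, Col-0 A or Col-0 C, with adjusted p up to 0.125. The EAR pool 13 background was between them, with 12.6, 10.8 and 10.9 CPM, and differed from Col-0 by 0.44 (SE 0.22, adjusted p = 0.226). KRP1 also varied within groups, with 8.40, 11.1 and 14.8 CPM in EAR-15-053 and 6.66, 8.38 and 15.0 CPM in VP16-05-014, in both cases highest in library C.

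**Figure D3:**
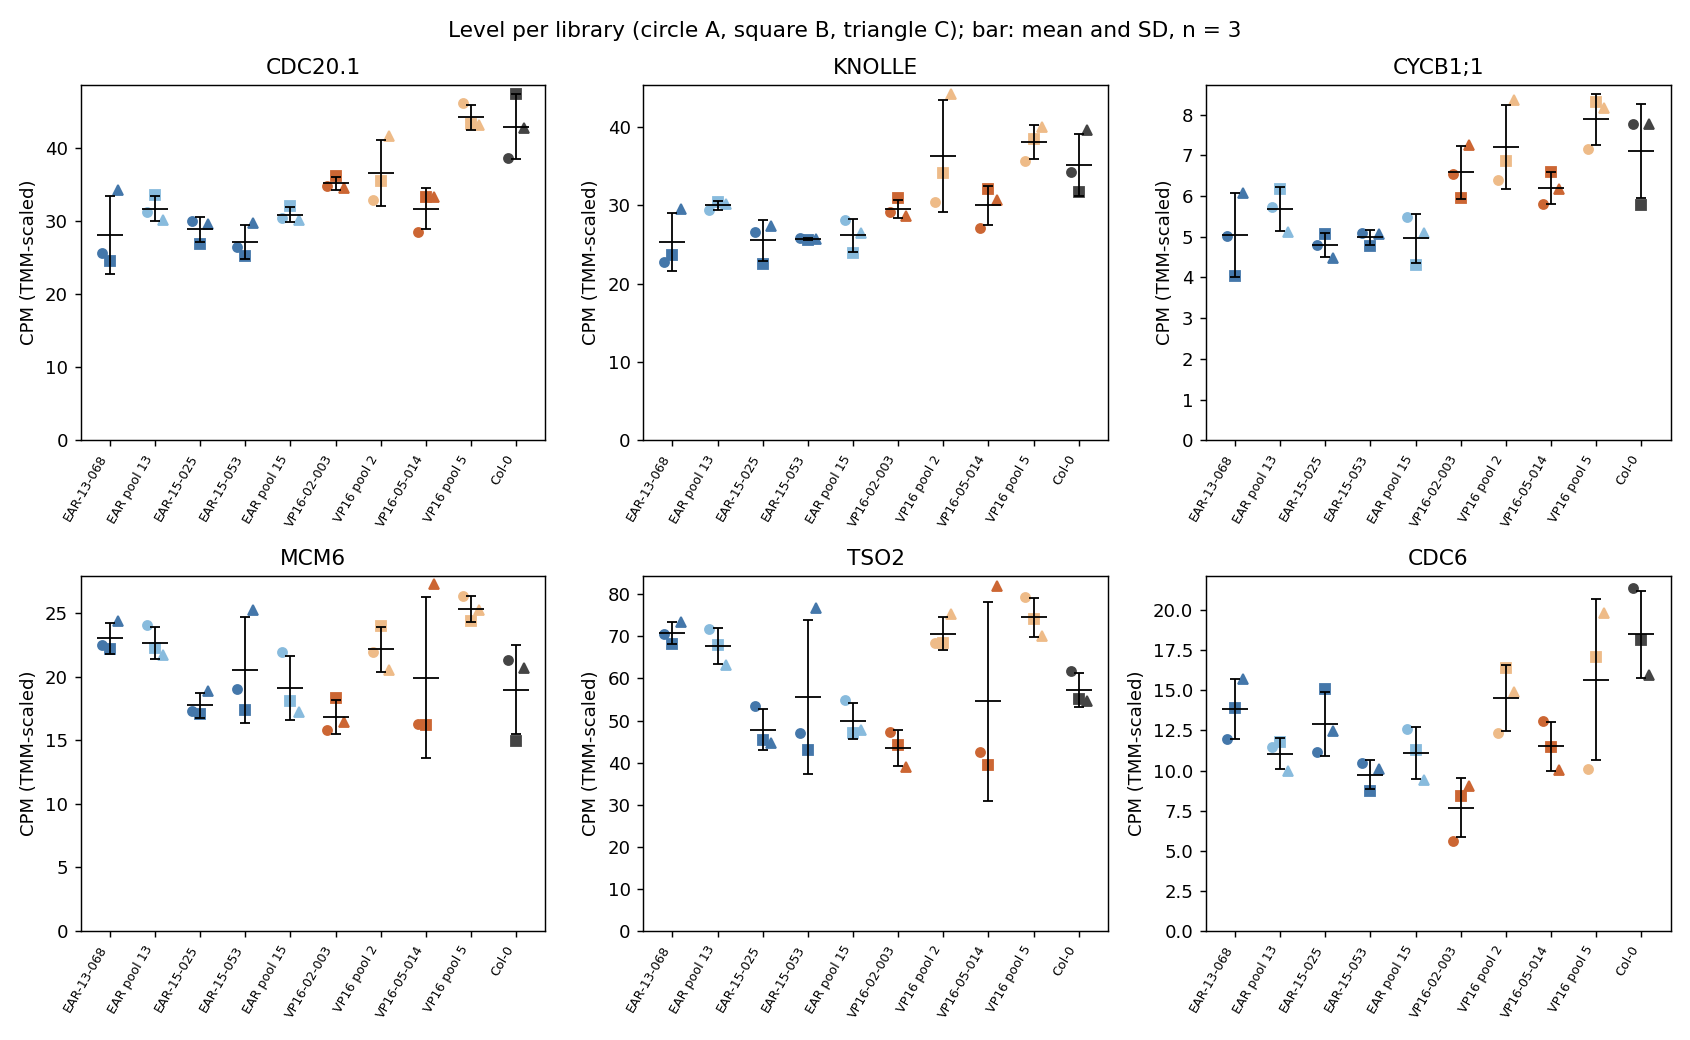
TMM-scaled CPM of 6 genes in each library (circle A, square B, triangle C) with the mean and SD of the 3 libraries of a group, ordered with EAR groups on the left and Col-0 on the right. CDC20.1, KNOLLE and CYCB1;1 are lower in the 5 EAR groups than in Col-0, within EAR-15-053 and within VP16-05-014 library C has the highest MCM6 and TSO2, and CDC6 is lowest in VP16-02-003.

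Against their own pools the EAR lines gave no calls among the 47 genes, where 0.235% of all genes were called for EAR-13-068, 0.0511% for EAR-15-025 and 0.00511% for EAR-15-053. This held for edgeR and for DESeq2. At an unadjusted p under 0.05 EAR-13-068 had 7 lower and 0 higher (11% of all genes passed), EAR-15-025 had 3 lower and 1 higher (8.84%), and EAR-15-053 had 2 lower and 1 higher (5.79%). The G2/M genes were mostly at negative values. They were negative in 15 of 17, 14 of 17 and 14 of 17 genes, with medians of -0.16, -0.08 and -0.12 against -0.01, -0.02 and -0.00 for all genes tested. With library sizes alone the median for EAR-15-025 was -0.16. The smallest adjusted p was that of CYCD3;1, a D-type cyclin of dividing leaf cells, in EAR-13-068. It had 20.7, 21.0 and 21.4 CPM in the line, against 26.1, 27.8 and 23.9 CPM in the pool, a log2 difference of -0.30 (SE 0.09) with an adjusted p of 0.206. The libraries did not overlap, yet the difference did not pass over all genes. It passed without the second set of 4 libraries (-0.30, adjusted p = 0.0366, where 3.07% of all genes were called), a set that holds no library of this comparison. EAR-15-025 against EAR-15-053, which share a pool, gave 0 calls by either tool (0.0153% of all genes), and 1 lower at an unadjusted p under 0.05 (9.71% of all genes). Neither test of whether EAR-13-068 differed in its change from its pool from EAR-15-025 (0.0358% of all genes called) or from EAR-15-053 (0.0204%) called any of the 47 genes with either tool. An unadjusted p under 0.05 was reached by 1 gene in the first of these tests (4.71% of all genes) and by 0 in the second (3.97%).

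In the VP16 pools the G2/M genes lay near Col-0, with a median log2 fold change of -0.08 in pool 2 (13 of 17 negative) and 0.06 in pool 5 (4 of 17 negative), or 0.11 in pool 5 without Col-0 C. Neither VP16 pool background had a gene among the 47 called against Col-0 with edgeR or DESeq2, where 0.0153% of all genes were called for pool 2 and 0.00511% for pool 5. At an unadjusted p under 0.05, pool 2 had 1 higher and 2 lower (11.1% of all genes passed) and pool 5 had 3 higher and 0 lower (9.79%). The 3 of pool 5 were MCM6 (0.40, SE 0.16, adjusted p = 0.497), CYCD1;1 (0.33, SE 0.14, adjusted p = 0.504) and CDT1A (0.44, SE 0.19, adjusted p = 0.508). Without the libraries standing apart each pool had 2 genes called higher, beside 4.16% and 1.99% of all genes. Without the second set of 4 libraries pool 2 had E2FC and KRP1 higher and CDC20.1 lower (-0.33, adjusted p = 0.0495), where 10% of all genes were called, and pool 5 had MCM6, CYCD1;1, CDT1A and TSO2 higher, where 3.85% were.

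A contrast chosen after the data were seen set both EAR pools against both VP16 pools and so used no Col-0 library. It called 19 of the 47 genes lower and 1 higher, or 42.6%, where 20.9% of all genes were called. Of all genes, 9.48% were called lower. With all libraries the lower calls took in 14 of 17 G2/M genes, with a median log2 fold change of -0.34, and 1 of 13 S phase genes, with a median of -0.19. The smallest adjusted p values were those of CYCD4;1 (-0.53, SE 0.09, adjusted p = 0.000316), CYCB1;1 (-0.50, SE 0.10, adjusted p = 0.000983), KNOLLE (-0.41, SE 0.08, adjusted p = 0.00122) and CDC20.1 (-0.36, SE 0.08, adjusted p = 0.00173). AUR1, CYCB2;1, CYCB2;2, CYCD1;1, CDKB2;1, CDKB2;2, CDC20.2, HINKEL, CYCB1;2, the A-type cyclin CYCA1;1 and CDC6 followed, with log2 fold changes from -0.53 to -0.25 and adjusted p up to 0.0201.

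CYCB1;1 ran from 4.31 over a median of 5.30 to 6.19 CPM in the 6 EAR pool libraries, against 6.38, 7.67 and 8.36 CPM as the lowest, median and highest of the 6 VP16 pool libraries. KNOLLE ran from 24.0 over 28.8 to 30.4 CPM in the EAR pools, against 30.5, 37.1 and 44.3 CPM in the VP16 pools. Neither gene overlapped between the pools. Every EAR pool library was below every VP16 pool library in 8 of the 47 genes, 17%, beside 5.28% of all genes, and 6 of the 8 are of G2/M. CDKA;1, the kinase partner of the D-type cyclins, was higher in the EAR pools (0.18, SE 0.06, adjusted p = 0.034). The count was 29 without the libraries standing apart, beside 32.4% of all genes, and 15 without VP16 pool 2 C. Without the second set of 4 libraries 24 were lower and 2 higher, beside 32.7% of all genes. Of S phase, CDC6, MCM2, MCM3, MCM6, CDT1A and TSO2 were then lower, so the low number of S phase calls depended on the libraries kept. The labels give no date of growth or sequencing, so the fusion and any batch shared by its pools cannot be told apart.

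The meristem and young organ markers, a list of 10 genes, summed to 75.7 to 82.6 CPM in the EAR pool 13 background, 79.8 to 81.7 in the EAR pool 15 background, 68.1 to 76.2 in the VP16 pool 2 background and 70.4 to 83.8 in the VP16 pool 5 background, against 70.8 to 80.6 CPM in Col-0. The EAR lines had 65.8 to 73.1, 68.3 to 76.1 and 69.2 to 73.0 CPM in EAR-13-068, EAR-15-025 and EAR-15-053. VP16-02-003 was highest with 89.1 to 96.8 CPM, and VP16-05-014 had 71.8 to 82.8 CPM. Most of the sum came from ANT, GRF1 and AN3, and the stem cell markers WUS and CLV3 had 4 and 29 reads in all 30 libraries together. The part of meristem content in these results was not tested.

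The 3 leaf senescence markers differed in level between groups. They summed to 2.76 to 18.9 CPM in EAR-13-068, 4.80 to 16.5 in EAR-15-025, 17.6 to 18.6 in EAR-15-053, 17.6 to 33.8 in EAR pool 13 and 10.7 to 37.5 in EAR pool 15, against 3.15 to 4.75 CPM in Col-0. VP16-02-003 had 12.4 to 39.8, VP16-05-014 3.35 to 9.01, the VP16 pool 2 background 6.81 to 21.0 and the VP16 pool 5 background 3.89 to 5.73 CPM. Nearly all of it was SAG13, with 8589 reads over the 30 libraries, whereas SAG29 had 322 and SAG12, which encodes a protease of senescing leaves, had 0. SAG13 was called higher than Col-0 in EAR pool 13 (2.66, SE 0.66, adjusted p = 0.0133), EAR pool 15 (2.58, SE 0.67, adjusted p = 0.0213), EAR-15-053 (2.28, SE 0.67, adjusted p = 0.0304) and VP16-02-003 (2.68, SE 0.675, adjusted p = 0.00622). It was not called in EAR-13-068 (adjusted p = 0.267) or EAR-15-025 (adjusted p = 0.24). The part of these markers in the G2/M results was not tested.

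The sequences before the genes were read for the letters that MYB3R and E2F factors are known to bind, which act on G2/M and on S phase genes. Windows of 300 bases before the annotated gene start were taken from RefSeq's TAIR10.1 build for all 47 genes and for 27443 protein-coding genes. The MSA core AACGG, on either strand, stood in 12 of 17 G2/M genes (70.6%), in 2 of 13 S phase genes (15.4%), in 22 of all 47 (46.8%) and in 23.4% of protein-coding genes. The longer CAACGG, which contains the core, stood in 41.2% of G2/M genes, 7.69% of S phase genes and 6.08% of protein-coding genes. The E2F consensus was searched as TTTCCCGC, TTTGGCGC, TTTCGCGC and TTTGCCGC. At least 1 of these 4 strings stood in 5 of 13 S phase genes (38.5%), namely MCM2 to MCM6, in 0 of 17 G2/M genes and in 1.57% of protein-coding genes. The site II element TGGGCC, bound by TCP factors, stood in 61.5% of S phase genes, 5.88% of G2/M genes and 14.6% of protein-coding genes. A match is a string of letters and was not tested as a binding site.

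**Figure D4:**
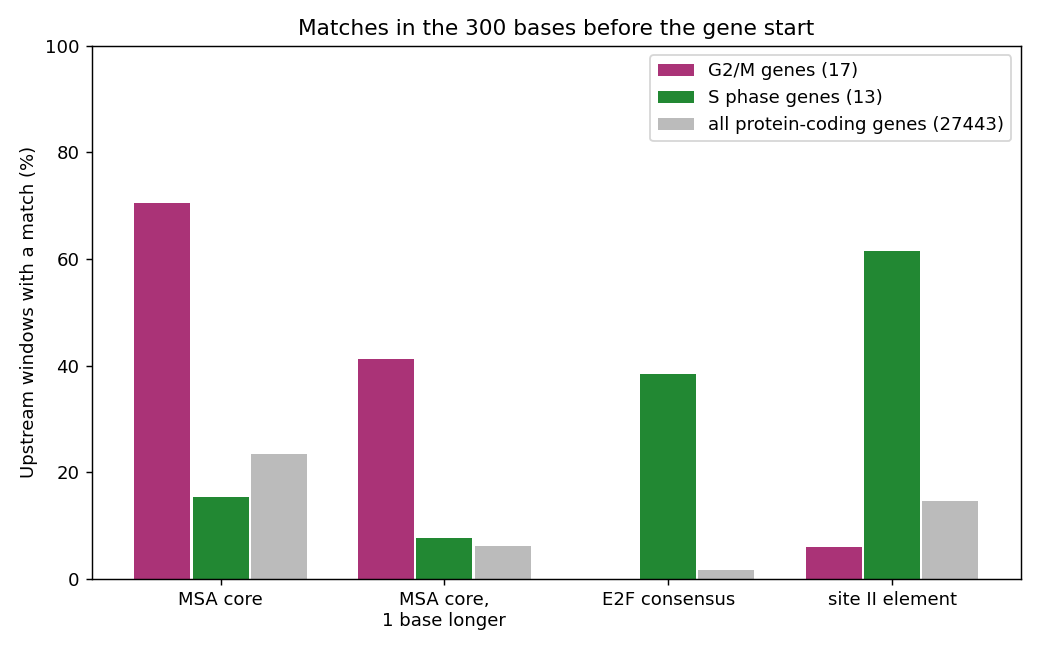
Share of upstream windows with at least 1 match (vertical, percent) for 4 elements in the 17 G2/M genes, the 13 S phase genes and 27443 protein-coding genes. The MSA core is found in 70.6% of G2/M genes and 15.4% of S phase genes, and the E2F consensus in 38.5% of S phase genes and in 0 G2/M genes.

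The windows shown are those of 3 B-type cyclins with several MSA cores, of the kinesin gene HINKEL, and of 2 helicase subunits with an E2F match, each 5′ to 3′ on the strand of the gene and ending at the base before the gene start, with AACGG, its reverse complement CCGTT or the E2F match in capitals. CYCB1;1 lies on the minus strand with its window at chr4:17624309-17624608, CYCB1;2 on the minus strand at chr5:1861704-1862003, CYCB2;2 on the plus strand at chr4:16901296-16901595 and HINKEL on the minus strand at chr1:6324379-6324678. MCM2 lies on the plus strand at chr1:16969914-16970213 and MCM5 on the minus strand at chr2:3527501-3527800.
CYCB1;1: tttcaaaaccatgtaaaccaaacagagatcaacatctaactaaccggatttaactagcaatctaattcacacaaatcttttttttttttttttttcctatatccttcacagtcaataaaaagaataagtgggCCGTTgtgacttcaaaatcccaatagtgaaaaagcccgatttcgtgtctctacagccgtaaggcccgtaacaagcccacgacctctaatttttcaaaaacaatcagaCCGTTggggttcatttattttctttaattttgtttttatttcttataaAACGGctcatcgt
CYCB1;2: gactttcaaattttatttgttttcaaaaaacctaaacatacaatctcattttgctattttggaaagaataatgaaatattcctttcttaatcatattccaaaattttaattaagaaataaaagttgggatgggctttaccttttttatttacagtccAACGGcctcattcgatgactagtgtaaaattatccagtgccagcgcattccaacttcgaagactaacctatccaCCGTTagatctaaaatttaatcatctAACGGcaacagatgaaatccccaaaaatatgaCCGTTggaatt
CYCB2;2: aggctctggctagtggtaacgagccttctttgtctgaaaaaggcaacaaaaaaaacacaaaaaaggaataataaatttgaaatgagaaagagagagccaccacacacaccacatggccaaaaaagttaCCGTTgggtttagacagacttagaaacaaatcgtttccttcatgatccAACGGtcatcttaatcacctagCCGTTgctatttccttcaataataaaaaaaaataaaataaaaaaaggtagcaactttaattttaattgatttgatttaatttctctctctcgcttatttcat
HINKEL: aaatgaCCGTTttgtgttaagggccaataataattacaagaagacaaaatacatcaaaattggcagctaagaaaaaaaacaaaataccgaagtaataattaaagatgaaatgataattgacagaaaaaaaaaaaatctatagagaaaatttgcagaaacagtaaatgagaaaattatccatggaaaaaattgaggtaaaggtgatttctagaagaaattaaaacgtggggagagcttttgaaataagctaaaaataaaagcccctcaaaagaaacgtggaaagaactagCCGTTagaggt
MCM2: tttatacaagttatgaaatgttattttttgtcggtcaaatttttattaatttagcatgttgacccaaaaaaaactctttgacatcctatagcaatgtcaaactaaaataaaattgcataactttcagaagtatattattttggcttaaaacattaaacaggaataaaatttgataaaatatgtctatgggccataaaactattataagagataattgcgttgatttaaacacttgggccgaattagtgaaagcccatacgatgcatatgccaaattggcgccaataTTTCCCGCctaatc
MCM5: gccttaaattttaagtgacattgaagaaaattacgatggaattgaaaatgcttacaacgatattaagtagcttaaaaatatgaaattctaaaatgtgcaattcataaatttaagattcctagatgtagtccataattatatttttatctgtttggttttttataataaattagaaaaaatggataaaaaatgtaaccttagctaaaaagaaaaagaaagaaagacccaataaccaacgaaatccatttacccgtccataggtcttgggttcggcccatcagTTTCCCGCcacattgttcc

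Of the 7 B-type cyclin windows 6 held an MSA core and 5 held more than 1. CYCB1;2 had 4, starting 143, 69, 43 and 11 bases before the gene start. CYCB1;4, called lower than Col-0 in 4 of the 5 EAR groups, had none in its window. KNOLLE and AUR1 had 1 each, at 12 and 79 bases before the start. CDC20.1, called in all 5 EAR groups, had 1 at 278 bases, and CDC20.2 had none. KRP1, called higher in EAR-13-068, had 6. CDC6 had neither an MSA core nor an E2F string. A link between these strings and the calls was not tested.

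With all libraries 3 of 13 S phase genes and 1 of 17 G2/M genes were lower in VP16-02-003 than in its pool. Of the 47 genes 6 were lower and 1 was higher than in the VP16 pool 2 background, or 14.9%, where 29.1% of all genes were called, so the share was below that of all genes. CDC6, which loads the MCM helicase on origins, had 5.59, 8.43 and 9.01 CPM in the line, against 12.3, 16.4 and 14.9 CPM in the pool. On the log2 scale it fell by 0.92 (SE 0.20, adjusted p = 0.00218), and the groups did not overlap. TSO2 (AT3G27060) had 47.4, 44.1 and 39.0 CPM in the line, against 68.4, 68.4 and 75.3 CPM in the pool (-0.70, SE 0.20, adjusted p = 0.0103), again without overlap. PCNA1 fell by 0.41 (SE 0.13, adjusted p = 0.0256). E2FA (AT2G36010), an E2F factor of S phase entry, had 5.90, 5.95 and 5.96 CPM in the line, against 7.95, 7.33 and 8.22 CPM in the pool (-0.40, SE 0.13, adjusted p = 0.0237). The E2FA libraries of the line were alike and all below the pool.

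CYCB2;1 fell by 0.54 (SE 0.18, adjusted p = 0.0312) and CYCD4;1 by 0.39 (SE 0.14, adjusted p = 0.0398) in VP16-02-003. CDKA;1 rose by 0.30 (SE 0.09, adjusted p = 0.0118), with 48.9, 48.9 and 50.7 CPM in the line, against 42.5, 41.0 and 37.0 CPM in the pool. All 13 S phase genes had negative values, with a median of -0.31, against -0.06 for the 17 G2/M genes and 0.01 for all genes tested. Among the inhibitors KRP1 had 11.6, 8.57 and 8.94 CPM in the line, against 14.6, 12.1 and 12.3 CPM in the pool (-0.42, SE 0.22, adjusted p = 0.156), and among A-type cyclins CYCA1;1 had 11.7, 12.2 and 8.17 CPM, against 13.2, 13.3 and 15.5 CPM (-0.38, SE 0.16, adjusted p = 0.082). Neither passed. The count was 4 without VP16-02-003 B, 2 without VP16-02-003 C, 3 without VP16 pool 2 C, 15 without the libraries standing apart (38.4% of all genes) and 10 without the second set of 4 (36.9%). The 9 lower in this last fit were CDC6, TSO2, PCNA1, RNR1, MCM2, MCM3, MCM6, E2FA and KRP1. CYCB2;1 and CYCD4;1 were not called there, nor by DESeq2. Of the 6 fits with 1 library left out, CDC6 was called in 6, TSO2 and CDKA;1 in 5, PCNA1 and CYCD4;1 in 3, CYCB2;1 in 2 and E2FA in 1.

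Set against Col-0, VP16-02-003 had CDC6 (-1.27, SE 0.20, adjusted p = 0.000136), E2FA (-0.41, SE 0.13, adjusted p = 0.0251), CDKB1;1 (-0.36, SE 0.13, adjusted p = 0.0421) and CYCD4;1 (-0.38, SE 0.14, adjusted p = 0.049) lower and CDKA;1 (0.24, SE 0.09, adjusted p = 0.0419) higher. These 5 genes are 10.6% of the 47, where 23.2% of all genes were called. CDC6 had 21.4, 18.2 and 15.9 CPM in Col-0, so its lowest Col-0 library was above every library of the line. Without the libraries standing apart 16 were called (32.5% of all genes). Without the second set of 4 libraries 13 were lower and 2 higher (34.6% of all genes). Those lower then included KNOLLE, CDC20.1, CDKB1;1 and CDKB2;2 of G2/M. The count was 2 without VP16-02-003 A or without B, 1 without C and 3 without Col-0 C. Of the 6 fits with 1 library left out, CDC6 was called in 6, CYCD4;1 in 3, E2FA in 2, CDKB1;1 in 1 and CDKA;1 in 0.

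CDC6 (AT2G29680) was called lower than Col-0 in both EAR pool backgrounds, EAR-15-053 and VP16-02-003. It averaged 13.9 ± 1.86 CPM in EAR-13-068, 12.9 ± 2.01 in EAR-15-025, 9.74 ± 0.921 in EAR-15-053, 11.1 ± 0.961 in EAR pool 13, 11.1 ± 1.61 in EAR pool 15, 7.68 ± 1.83 in VP16-02-003 and 11.5 ± 1.52 in VP16-05-014, against 18.5 ± 2.73 CPM in Col-0 (SD, n = 3 each). The VP16 pools 2 and 5 had 14.5 ± 2.06 and 15.7 ± 5.04 CPM, against the same Col-0 level, and both pools overlapped Col-0. CDC6 overlaps AT2G29679 on the other strand by 123 bases, and since the sources used here do not state the use of strand in counting, reads of the partner cannot be told apart there. Of the 47 genes 14 overlap a gene on the other strand in this way, among them KNOLLE by 464 bases, AUR1 by 290 and AUR2 by 877.

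In VP16-05-014 the median of the G2/M genes was below that of every library of its pool in all 3 libraries, and the median of the S phase genes in A and B. Of the 47 genes 4 were called lower than in the VP16 pool 5 background and 0 higher, or 8.51%, where 1.5% of all genes were called. They are CDC20.2 (-0.63, SE 0.13, adjusted p = 0.0202), CDC20.1 (-0.48, SE 0.11, adjusted p = 0.0286), CYCB1;2 (-0.57, SE 0.14, adjusted p = 0.0437) and E2FA (-0.52, SE 0.13, adjusted p = 0.0438). CDC20.1 had 28.5, 33.3 and 33.4 CPM in the line, against 46.2, 43.3 and 43.2 CPM in the pool. CYCB1;2 had 14.4, 17.1 and 18.6 CPM in the line, against 23.9, 23.0 and 27.2 CPM in the pool. In both genes all libraries of the line were below the pool. Every library was lower in 44.7% of the 47 genes, beside 8.21% of all genes. Values were negative in 44 of 47 genes, with a median of -0.33 beside 0.00 for all genes tested, and 29 of the 47 had an unadjusted p under 0.05 on the lower side (61.7%, beside 8.58% of all genes).

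Library C of this line went the other way in S phase genes. TSO2 had 42.5, 39.4 and 81.9 CPM in A, B and C of the line, against 79.3, 74.1 and 70.1 CPM in the pool. MCM6 had 16.3, 16.2 and 27.3 CPM in the line, against 26.4, 24.4 and 25.2 CPM in the pool. A and B were below the whole pool in both genes, and C was above it. For MCM2 the line had 23.5, 19.2 and 35.2 CPM, against 33.9, 34.9 and 32.9 CPM in the pool. The S phase median was -0.31, -0.35 and 0.30 in log2 CPM relative to Col-0 in A, B and C, and the G2/M median -0.41, -0.38 and -0.25. On the first principal component of all genes C lay at -50.6 and A and B at 24.5 and 26.7, against -47, -34.8 and -24.7 in the pool. On the second C lay at -12.9 and A and B at 17.2 and 27.7, against 2.64, 14 and 15.9 in the pool, so that C was near the pool on the first component alone. Whether library C of VP16-05-014 or of EAR-15-053 carries the right label was not tested.

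Without library C, 27 of the 47 genes were lower and 1 higher than in the pool, or 59.6%, where 25.7% of all genes were called. The lower calls then took in 12 of 13 S phase genes, with a median of -0.57, and 10 of 17 G2/M genes, with a median of -0.48, beside -0.02 for all genes. TSO2 fell by 0.87 (adjusted p = 0.000851), CDT1A, which loads the helicase with CDC6, by 0.79 (adjusted p = 0.00338), MCM2 by 0.68 (adjusted p = 0.00448) and CYCB2;2 by 0.72 (adjusted p = 0.00329). WEE1 fell by 0.83 (adjusted p = 0.00712) and CDKA;1 rose by 0.31 (adjusted p = 0.00866). Libraries A and B alone stand behind these values of the line. With any 1 of the other 5 libraries left out in place of C, no gene was called, and none when only the 6 libraries compared entered the fit. Without all 4 libraries standing apart 29 were called (29.1% of all genes).

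**Figure D5:**
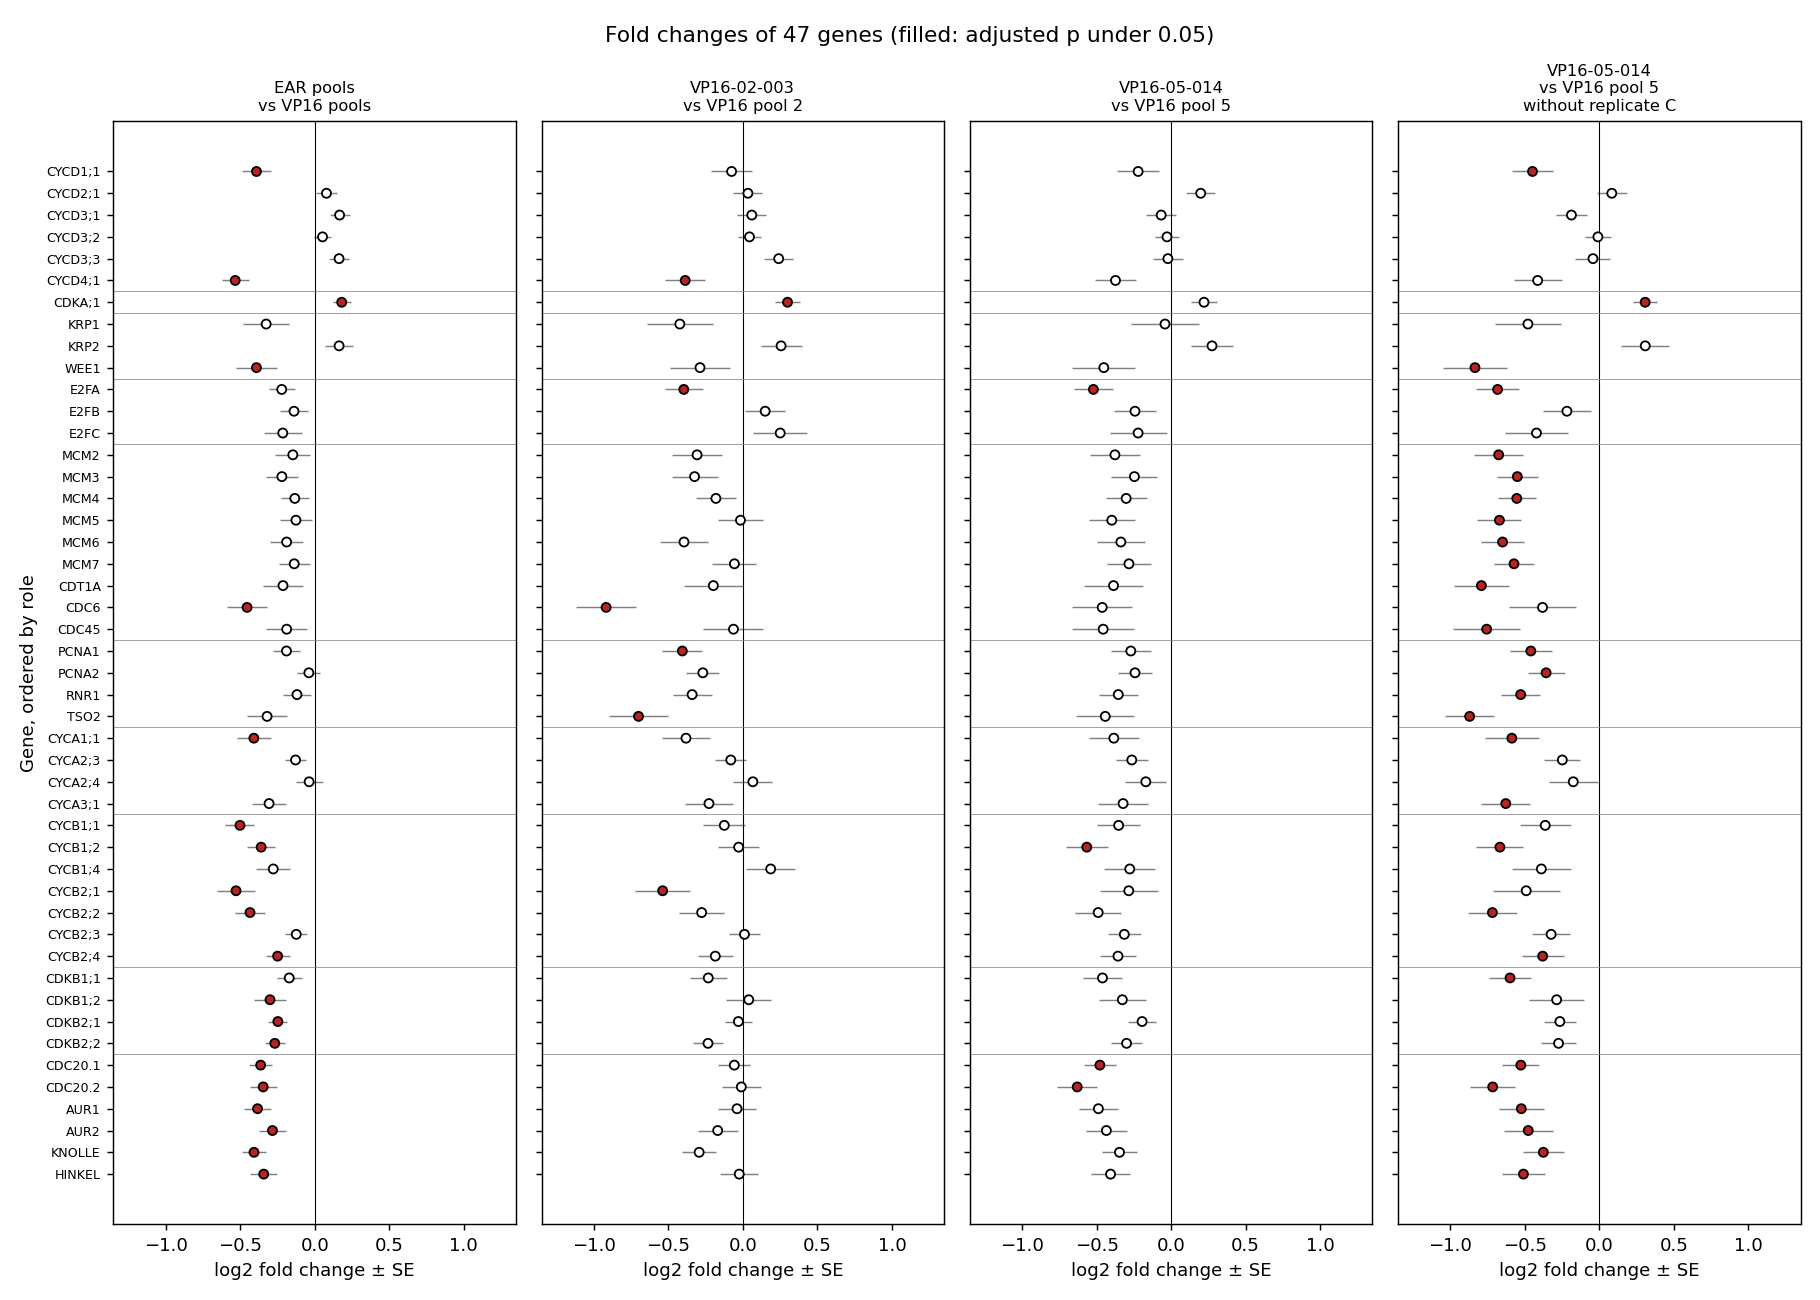
Log2 fold change with its SE (horizontal) of the 47 genes (rows, ordered by role) in 4 comparisons, filled where the adjusted p was under 0.05. In the EAR pools against the VP16 pools the filled points gather in the mitotic rows, in VP16-02-003 the most negative values are those of CDC6 and TSO2, and in VP16-05-014 the calls number 4 with all libraries and 28 without library C.

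Against Col-0, VP16-05-014 had 0 of the 47 genes called with edgeR, where 0.526% of all genes were called. DESeq2 called 4 of the 47, and its share of all genes is not given here. At an unadjusted p under 0.05 in edgeR the line had 15 lower (14.4% of all genes passed). Without library C it had 8 lower (6.49% of all genes), and without the 4 libraries standing apart 16 lower and 1 higher (12.1% of all genes). CDC20.2 was nearest with all libraries (-0.53, SE 0.13, adjusted p = 0.0637). The difference between the changes of VP16-02-003 and VP16-05-014 from their pools was tested directly. None of the 47 genes passed with either tool, where 1.83% of all genes were called. An unadjusted p under 0.05 was reached by 6, all of G2/M, which is 12.8% of the 47. That share is near the 13.9% of all genes that reached it. CDC20.2 was nearest, with a difference of 0.62 (SE 0.18, adjusted p = 0.0833). The count of calls was 1 with library sizes alone, 0 without library C (1.27% of all genes), 2 without the libraries standing apart (2.09%) and 1, CDC20.2, without the second set of 4 (1.5%).

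A further 88 cell cycle genes outside the 47 were examined, of which 85 were tested. They held 1 gene higher and 1 lower in the EAR pool 13 background against Col-0, the inhibitor KRP6 (0.60) and the CDK subunit CKS1 (-0.41), and 1 lower in the EAR pool 15 background, CKS2 (-0.45). These are 2.35% and 1.18% of the 85, below the 8.71% and 6.61% of all genes. EAR-13-068 had 2 higher and 12 lower than Col-0 (16.5%, beside 9.29% of all genes), EAR-15-025 had 9 lower (10.6%, beside 4.34%) and EAR-15-053 had 10 lower (11.8%, beside 10.8%), the last close to the share of all genes. The APC/C activator CCS52B fell by 0.49, 0.46 and 0.54 in these lines, the spindle checkpoint gene MAD2 by 0.54, 0.49 and 0.56, and EDE1, a microtubule protein of mitosis, by 0.51, 0.53 and 0.52. Genes outside mitosis fell in all 3 lines too. ORC4, a subunit of the origin recognition complex of DNA replication, fell by 0.39, 0.43 and 0.41, the E2F-like genes DEL2 by 0.62, 0.67 and 0.58 and DEL3 by 0.49, 0.61 and 0.59, and CKS2 by 0.38, 0.45 and 0.55. Other replication genes called in single lines were PSF1 in EAR-13-068 (-0.58), ORC6 in EAR-15-025 (-0.53) and PSF2 in EAR-15-053 (-0.54). SMR1, a CDK inhibitor, rose by 0.73 and KRP6 by 0.58 in EAR-13-068. Against the pools, VP16-02-003 had 6 higher and 9 lower of the 85 (17.6%, beside 29.1% of all genes), with the small ribonucleotide reductase subunit RNR2A at -0.48 and CYCB1;3 at -0.84, and VP16-05-014 had 1 lower (1.18%, beside 1.5%), CCS52B at -0.61.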

How the data were processed

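RNA from shoots was sequenced in 30 libraries, 3 for each of 10 groups. The authors deposited raw read counts per gene, whole numbers without normalization. Per the submitters' processing notes, reads were aligned with TopHat2 2.0.5 and counted with HTSeq on TAIR10, and the annotation, counting mode and use of strand are not given in the sources used here. The 5 entries of each table that name no gene were left out. Counts were filtered with filterByExpr (minimum count 10) and scaled by TMM, and all groups were fitted together with the quasi-likelihood test of edgeR 4.0.16 in R 4.3.3, with p-values adjusted by Benjamini-Hochberg over all genes tested. Levels are CPM. Library medians are log2 CPM with a prior count of 2, and the heat map adds 0.5 to each CPM.

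The design held 15 comparisons and 3 tests of a difference between line effects. Both the contrast of EAR pools with VP16 pools and the fits without either set of 4 libraries were added after the data were seen. The 47 genes and the other gene lists were chosen with earlier results of these data known. Up to 15 called genes per comparison were named, by smallest adjusted p, and values in every library were given for the gene with the smallest adjusted p in each role. Other genes and libraries described in detail were chosen after their values were seen. Alternatives were DESeq2 1.42.0, its size factors in edgeR, library sizes alone, no count filter, the compared libraries alone, a replicate block, no organelle genes and each library left out. Letters A, B and C were checked for pairing by the correlation of deviations from group means. In the EAR pool 15 background against Col-0 the like-letter correlations were 0.279, 0.207 and 0.15, and in no other comparison were all 3 over 0.1. The fitting steps were tested on simulated counts. Upstream windows and overlaps came from RefSeq's TAIR10.1 annotation.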

Additional observations from a re-analysis of the deposited data

How the results depend on the processing

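Of the 1350 values of named genes under the alternatives 1095 remained called, 255 did not, and none changed sign. These genes were named because they were called, and the alternatives used the same or nearly the same libraries. A change of sign was therefore unlikely in advance. Counts of called genes moved by over 1.5 times as follows. Without the 4 libraries standing apart, they were 15 for VP16-02-003 against its pool, 29 for VP16-05-014 against its pool, 2 for the difference between these effects, 9 and 16 for the EAR pool 13 and 15 backgrounds, 2 each for the VP16 pools 2 and 5, and 22, 18, 28, 16 and 17 for EAR-13-068, EAR-15-025, EAR-15-053, VP16-02-003 and VP16-05-014 against Col-0. For the fit without the second set of 4 libraries, chosen by chi-square, the share of all genes called follows each count in brackets. The counts were 1 (3.07%) for EAR-13-068 and 28 (30.8%) for VP16-05-014 against their pools, and 1 (1.5%) for the difference between VP16 effects. Against Col-0 they were 7 (18.1%) for the EAR pool 13 background and 3 (10%) and 4 (3.85%) for the VP16 pools 2 and 5. For EAR-15-025, EAR-15-053, VP16-02-003 and VP16-05-014 against Col-0 they were 19 (11.9%), 28 (21.3%), 15 (34.6%) and 15 (13.2%). With library sizes alone they were 6 for the EAR pool 15 background, 3 for VP16-02-003 against Col-0 and 1 for the difference between VP16 effects. With no count filter they were 2 for VP16-05-014 against its pool and 2 for VP16-02-003 against Col-0. With the compared libraries alone they were 0 for VP16-05-014 against its pool, and 5, 8 and 9 for EAR-13-068, EAR-15-053 and VP16-02-003 against Col-0. DESeq2 called 4 for VP16-05-014 against Col-0. Shares of all genes are not given for the fits with library sizes alone, no count filter, the compared libraries alone or DESeq2. The cause of these shifts was not tested.

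With 1 library left out, counts ran from 2 to 9 for VP16-02-003 and 0 to 28 for VP16-05-014 against their pools. Against Col-0 they ran from 0 to 3 and 1 to 6 for the EAR pools 13 and 15, 3 to 18 for EAR-13-068, 3 to 10 for EAR-15-025, 8 to 17 for EAR-15-053, 1 to 6 for VP16-02-003 and 0 to 8 for VP16-05-014. The EAR pools against the VP16 pools ran from 14 to 20, and the other comparisons stayed at 0. Among fits with 1 library left out, the share of all genes called is given only for that without VP16-05-014 C. With the replicate letter as a block, the EAR pool 15 background kept a count of 10. The letters did not pair the other groups, where the block gave 8 for VP16-02-003 and 3 for VP16-05-014 against their pools, and 16, 12, 15 and 7 for EAR-13-068, EAR-15-025, EAR-15-053 and VP16-02-003 against Col-0. Of 927 medians over gene groups under the alternatives 68 moved by more than the spread between libraries, among them the G2/M median of the VP16 pool 5 background (0.11 without Col-0 C) and of EAR-15-025 against its pool (-0.16 with library sizes alone). The lowest count of a member in any library was 22.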
